A study of Arabidopsis thaliana with 24 samples.

Results

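The 8 genes AT1G72060, AT3G23550, AT4G25390, AT3G16530, AT1G52200, AT2G39400, AT1G22890 and AT5G18470 were followed in Arabidopsis thaliana leaves because their signals fell furthest below the wild type in a line that overexpresses SOS1. They are 8 of the 13356 genes that had a probe set of their own among the 22746 probe sets tested. SOS1, a plasma-membrane antiporter that moves sodium out of cells in exchange for protons, was overexpressed in a glabrous Columbia strain written Col(gl). The genes were chosen by the differences of SOS1 from Col(gl), so these are given below as a description without a test. The question asked of the other plants was whether the M6PR line or its wild type Col showed the same fall with salt.

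The study used 24 Affymetrix ATH1 arrays, 2 for each of 12 groups, with RNA from leaves of 15 or more seedlings pooled per sample. There were 3 wild types. Ws, Col (Col-0) and Col(gl) were each set beside 1 line: CBF3 in Ws, a line with excess of a cold-response transcription factor, M6PR in Col, which carries the celery mannose-6-phosphate reductase gene of mannitol synthesis, and SOS1 in Col(gl). Every genotype was grown in days of 10 h light and 14 h dark, either without NaCl or with NaCl raised from day 14 in steps of 50 mM every 2 days up to 100 mM, and was sampled on day 20, 6 days after salting began. The promoters that drive the transgenes and the number of independent transformants were not stated in the labels read here. The 2 samples of a group are labelled biological replicates, without saying whether they came from separate plantings, so p-values measure the spread between these samples only.

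Titles and characteristics set the groups, while for CBF3 and M6PR the description field gives each line the wild type of the other. On every wild-type Ws array 16 probe sets lay at least 3 log2 units below every Col and Col(gl) wild-type array, and all 16 lay on the Ws side of the midpoint on the 4 CBF3 arrays against 0 of 16 on the 4 M6PR and the 4 SOS1 arrays. These probe sets were not chosen to separate Col from Col(gl), so they do not show which Columbia wild type M6PR or SOS1 came from. SOS1 itself was not paired with a single-gene probe set in the annotation used, so its overexpression was not checked. The leaf markers RCA and SBPASE, the 2 of 7 that were measured, had log2 signals of 13.4 to 13.9 and 12.04 to 12.92 on all arrays. Array medians ran from 5.77 to 6.09. The dap control stood apart at 4.65 on replicate 1 of salted Ws and 4.93 on replicate 1 of salted Col, against 7.06 to 9.24 elsewhere. On the same 2 arrays the 25S rRNA control read 4.98 and 4.52, against 6.58 to 10.36 elsewhere. All signals below are log2 RMA values, and signals of different genes are not set against each other, since probe sets differ in brightness.

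As background, most of the 8 genes belong to protein families with members known from defence and stress responses in leaves. Lectins such as AT3G16530, of the legume lectin family, and AT5G18470, of the curculin-like (mannose-binding) family, bind sugars at cell surfaces. AT4G25390 encodes a protein of the protein kinase superfamily, the class of enzymes that relay signals by phosphorylation. AT3G23550 encodes a MATE efflux protein, a family of membrane carriers that export small molecules and toxins, and AT1G52200 a PLAC8-family protein, a group that includes plant cadmium resistance proteins. AT1G72060 encodes a serine-type endopeptidase inhibitor, a kind of protein that blocks protein-cutting enzymes, and AT2G39400 an alpha/beta hydrolase of the monoacylglycerol lipase-like family, which cleaves lipids. No role is given here for AT1G22890.

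In the SOS1 line the 8 genes lay below Col(gl) at both salt levels, on every array. Over all probe sets 22.6% lay lower without overlap in SOS1 without salt and 20.9% with salt. Without salt the differences ran from -3.01 for AT1G72060 to -1.69 for AT1G22890, with a median of -2.19. With salt they ran from -3.90 for AT3G23550 to -2.58 for AT5G18470, with a median of -3.03. Over all probe sets, 0.879% were called lower in SOS1 without salt and 1.7% with salt at an adjusted p of 0.05, a share from which nothing is read because this contrast chose the genes. To place the genes among other falls, single-gene probe sets were filtered by that adjusted p and by non-overlap. The filter used the contrast that chose the genes, so it is no test of them. With salt the genes were the 8 largest of 211 falls it kept. The edge was narrow: AT5G18470 at -2.58 was just inside, XTH19 at -2.57 and AT5G25930 at -2.41 just outside. Without salt, 5 of them were among 116 such falls, at ranks 1, 2, 3, 7 and 14, while AT1G52200, AT1G22890 and AT5G18470 were not.

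Replicates of the SOS1 groups spread more than those of Col(gl). Without salt, SOS1 replicate 2 lay above replicate 1 for 8 of 8 genes, by a median of 1.03 and up to 2.41, and with salt replicate 2 minus replicate 1 was negative for 7 of 8 genes, down to -2.96. The SD of the replicate difference over all probe sets was 0.63 in unsalted SOS1 and 0.17 in unsalted Col(gl). Leaving out 1 SOS1 array moved the median difference without salt to -1.45 (without replicate 1) or -3.01 (without replicate 2). PYK10, a root marker, read 6.43 to 7.52 on the SOS1 arrays and 3.92 to 4.11 on the Col(gl) arrays, over a range of 3.68 to 9.92 on all arrays. AT5G44020, the other measured gene listed as a root marker, went the other way, at 9.65 to 10.91 on SOS1 and 10.95 to 11.16 on Col(gl). It read 8.81 to 11.26 over all arrays, so it was bright in every leaf sample. TRY, the measured 1 of 3 trichome genes, read 5.53 to 6.37 on SOS1 and 4.82 to 5.09 on Col(gl). Their part in the result was not tested. In leaf RNA of this kind, fewer cells of a type and less RNA per cell cannot be told apart.

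**Figure D1:**
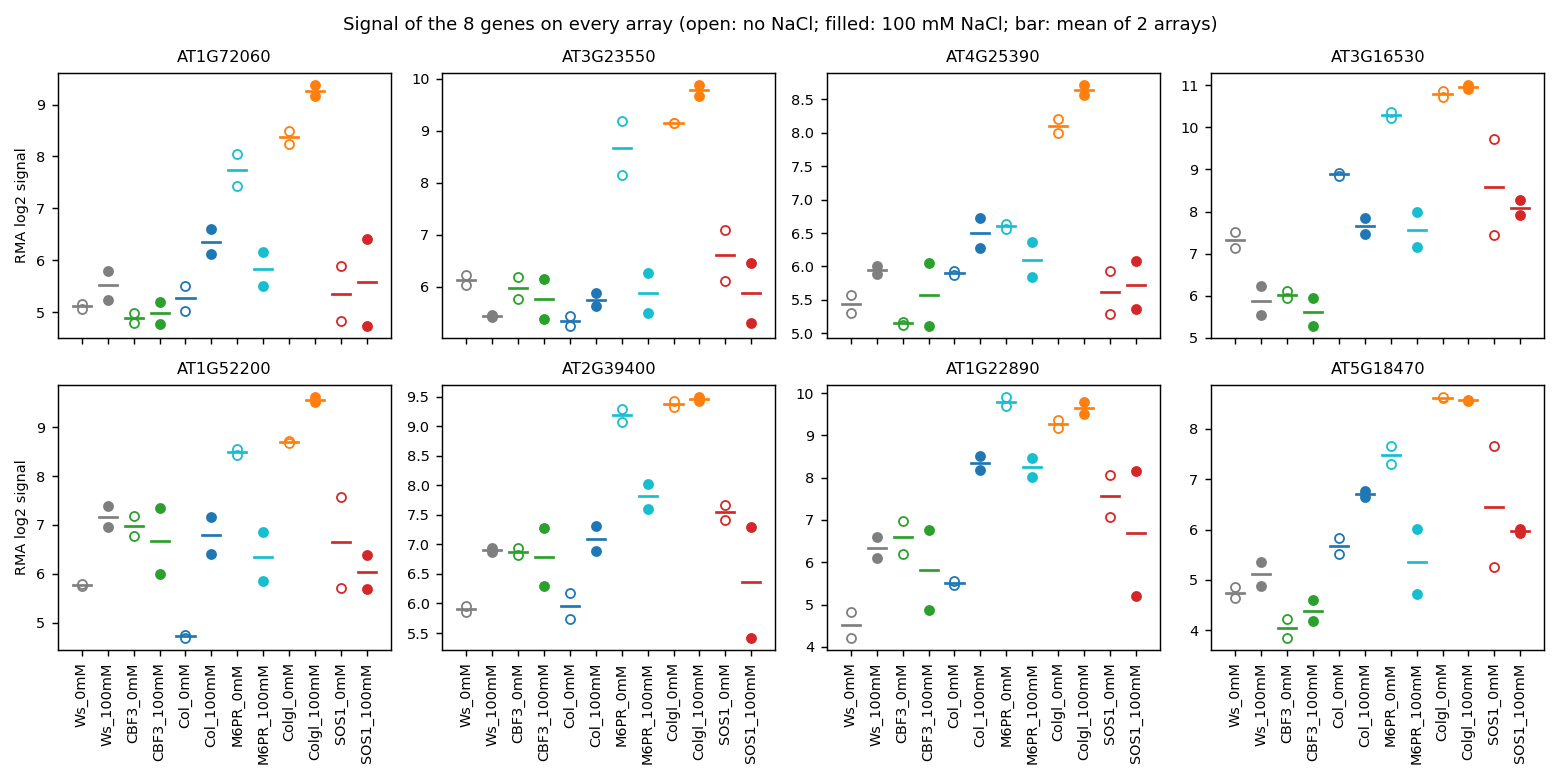
Log2 RMA signal (vertical axis) of the 8 genes on all 24 arrays, by group along the horizontal axis, with open points for arrays without NaCl, filled points for 100 mM NaCl and a bar at the mean of 2 arrays. Col(gl), drawn as Colgl, is high at both salt levels and M6PR without salt is mostly high, while the salted M6PR, Col, Ws, CBF3 and SOS1 arrays are lower: the mean over the 8 genes is 9.05 and 9.48 in Col(gl), 8.53 in unsalted M6PR and 5.62 to 6.90 elsewhere.

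Across the 12 groups, SOS1 mostly lay among the other genotypes and Col(gl) lay above them. The choice of the genes favoured high signals on the Col(gl) arrays, so the Col(gl) levels are a description and support nothing. The lowest of the 4 Col(gl) arrays lay above every array outside Col(gl) and unsalted M6PR for 8 of 8 genes, as for 2.88% of all probe sets. The mean over the 8 genes was 9.05 in unsalted and 9.48 in salted Col(gl), 8.53 in unsalted M6PR, 6.90 in salted Col, 6.79 in unsalted SOS1, 6.64 in salted M6PR, 6.29 in salted SOS1, 6.04 in salted Ws, 5.91 in unsalted Col, 5.82 in unsalted CBF3, 5.70 in salted CBF3 and 5.62 in unsalted Ws. From salted Col downwards, neighbours in that order differed by less than the replicate SD of the more variable groups, which reached 0.93 in unsalted SOS1 and 0.83 in salted SOS1. The SOS1 mean fell within the range of the 7 groups other than Col(gl), SOS1 and unsalted M6PR for 7 of 8 genes without salt and 8 of 8 with salt. The exception was AT3G23550, at 6.60 in unsalted SOS1. Against Col, another Columbia wild type, unsalted Col(gl) was higher by 1.91 to 3.98 and salted Col(gl) by 1.30 to 4.02, for 8 of 8 genes; over all probe sets 43.4% and 55.4% had a higher mean in Col(gl). SOS1 minus Col had a median of 1.02 without salt, with 6 of 8 genes higher in SOS1, and of -0.74 with salt, with 2 of 8 higher.

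The salt differences in Col(gl) itself ran from -0.05 to 0.90, with 7 of 8 higher. In SOS1 they ran from -1.18 to 0.21, with 6 of 8 lower, and leaving out 1 array turned the sign for 6 of 8. These arrays chose the genes, so neither is tested.

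In M6PR, the genes lay lower with salt for 8 of 8, and no salted array reached an unsalted one, as for 20.2% of all probe sets. A resemblance of M6PR with salt to SOS1 against Col(gl) was known when the genes were chosen. The M6PR results, with the interaction, are therefore no independent support. AT3G23550 and AT3G16530 fell past an adjusted p of 0.05 in limma's test over all probe sets, 2 of 8 against 0.378% of all probe sets called lower and 0.541% called in either direction. The median of the 8 differences was -2.01, against 0.01 over all probe sets, and 7 of 8 had an unadjusted p below 0.05, against 10.2% of all probe sets. Salted M6PR also had spread: replicate 2 was above replicate 1 for 8 of 8 genes, by a median of 0.72. The call count depended on which arrays were kept. Leaving out 1 array left 1 in its group, and the count then rose or fell as the calls over all probe sets did. The median of the 8 differences ran from -2.44 to -1.53 over all alternatives, and no gene changed sign.

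In Col the differences mostly had the other sign. With salt, 7 of 8 genes lay higher without overlap and 1, AT3G16530, lower, against 27% and 46.6% of all probe sets. AT1G52200 and AT1G22890 rose past the threshold, 2 of 8 against 10.1% of all probe sets called higher and 10.8% called lower in Col, and 0 of 8 fell. The count of 2 fell when any 1 of the 4 Col arrays was left out, which left 1 array in that group. The calls over all probe sets fell in the same refits. The count was 4 (1 of them lower) when each background was fitted alone, where 1975 of all probe sets were called higher and 2159 lower. With array weights it was 7 (1 lower), and 3668 of all probe sets were called higher and 4408 lower. The median of the 8 differences was 1.06 (0.89 to 1.06 over all alternatives), against -0.12 over all probe sets. Centring each array on its median moved the latter to -0.28, and the calls in Col from 2302 higher and 2462 lower to 1914 higher and 4119 lower. Col and M6PR were then compared directly by the interaction, the salt difference in M6PR minus that in Col. It passed for 6 of 8 genes, each with a more negative salt difference in M6PR than in Col. Over all probe sets 2.81% passed with that sign and 6.08% in either direction. Its median was -3.08, against 0.10 over all probe sets. Leaving out single arrays lowered the count of 6 in most cases, as it did the calls over all probe sets. The median interaction of the 8 ran from -3.47 to -2.59 over all alternatives. On the salted Col arrays PYK10 read 9.92 and 7.62 against 4.30 and 4.22 on the unsalted ones, and TRY 5.84 and 5.94 against 8.09 and 7.88. On the salted M6PR arrays PYK10 read 4.85 and 6.61 against 4.46 and 3.84, and TRY 6.55 and 5.40 against 5.22 and 5.28. Their part in these differences was not tested.

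Before salt, M6PR leaves were already above Col. Of the 8 genes, 6 were higher in unsalted M6PR past the threshold, against 4.87% of all probe sets, and the 8 differences had a median of 2.85, against -0.05 over all. TRY read 5.22 and 5.28 in these M6PR samples and 8.09 and 7.88 in the Col samples, and AT5G44020 11.3 and 11.1 against 9.05 and 8.81. The part of these markers was not tested. With salt, 0 of 8 differed between M6PR and Col by limma at the threshold, against 0.528% of all probe sets, 1 had an unadjusted p below 0.05, against 23.3% of all, and the median was -0.25. The M6PR and Col comparisons, with the interaction among them, all draw on the same 4 groups, so they are not independent. The fall in M6PR, the excess before salt and the interaction share the same 2 unsalted M6PR arrays.

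**Figure D2:**
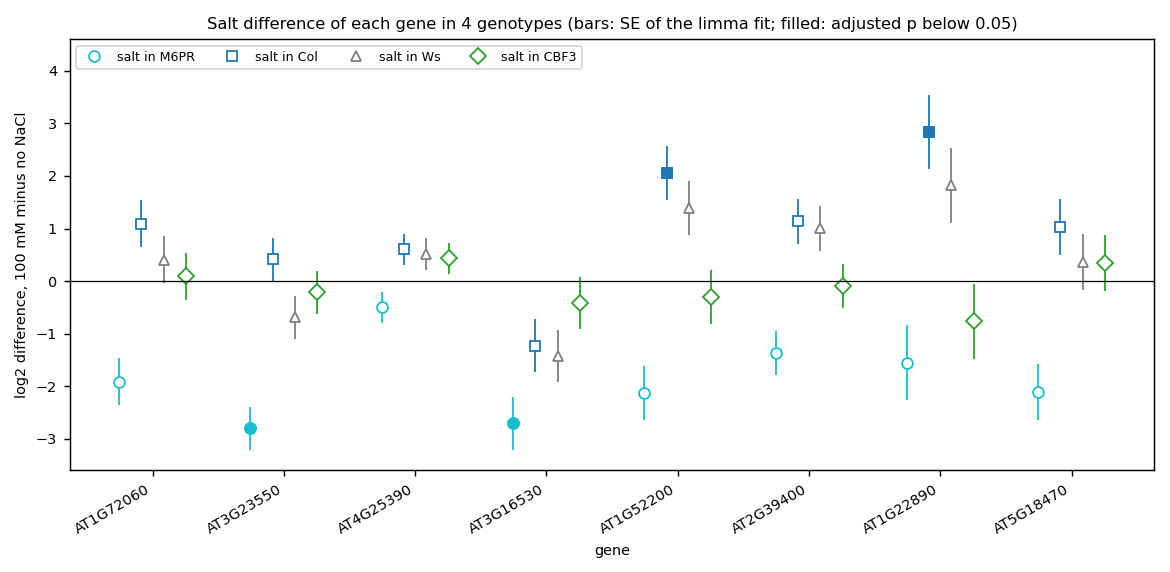
Log2 difference between 100 mM and no NaCl (vertical axis) for each gene in M6PR, Col, Ws and CBF3, with bars for the SE of the fit over all arrays (2 arrays per group) and filled symbols for an adjusted p below 0.05. The 8 M6PR points lie between -2.80 and -0.50, and 7 of the 8 Col points lie above 0.

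AT3G16530, the legume-type lectin, showed one of the 2 falls that passed in M6PR. Its signals were 10.21 and 10.35 in unsalted and 7.16 and 7.98 in salted M6PR, a difference of -2.71 ± 0.50 (SE, n = 2 arrays per group; adjusted p = 0.024 by limma), or 6.55-fold lower. In Col the signals were 8.92 and 8.85 without and 7.85 and 7.46 with salt, a difference of -1.23 ± 0.50 that did not pass (adjusted p = 0.093 by limma). It was the member that lay lower with salt in both genotypes, and the interaction was -1.48 ± 0.71 (adjusted p = 0.222 by limma). Col(gl) read 10.87 and 10.73 without and 10.91 and 10.999 with salt, against 7.43 and 9.72, and 8.27 and 7.91, in SOS1. Col(gl) was thus above all SOS1 arrays, and the unsalted SOS1 arrays were 2.29 apart.

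The other lectin, AT5G18470, read 7.29 and 7.66 in unsalted M6PR and 4.72 and 6.01 in salted M6PR. The difference of -2.11 ± 0.53 (SE, n = 2 arrays per group) did not pass (adjusted p = 0.103 by limma). Col read 5.50 and 5.84 without and 6.63 and 6.77 with salt, a difference of 1.03 ± 0.53 (adjusted p = 0.182 by limma). The interaction passed, at -3.15 ± 0.75 (adjusted p = 0.0246 by limma). Unsalted M6PR was 1.81 ± 0.53 above Col (adjusted p = 0.041 by limma), while with salt it was lower by 1.34, which did not pass. Signals of 8.60 and 8.62, and 8.55 and 8.57 with salt, made Col(gl) the highest genotype, and SOS1 read 5.25 and 7.66, and 5.94 and 6.02 with salt.

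The kinase-family gene AT4G25390 differed least in M6PR. Its signals were 6.64 and 6.57 without and 5.84 and 6.37 with salt, a difference of -0.50 ± 0.30 (SE, n = 2 arrays per group; adjusted p = 0.65 by limma). Col read 5.92 and 5.88, then 6.27 and 6.73 with salt. The interaction was -1.10 ± 0.42 and did not pass (adjusted p = 0.132 by limma). Neither did the excess of unsalted M6PR over Col, 0.70 ± 0.30 (adjusted p = 0.182 by limma). Col(gl) stood alone for this gene, at 8.0 and 8.20 without and 8.71 and 8.56 with salt, while SOS1 read 5.29 and 5.94, and 6.08 and 5.37. Unsalted M6PR, with a mean of 6.60, overlapped salted Col.

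For the MATE carrier AT3G23550, unsalted M6PR read 8.15 and 9.19, which overlapped unsalted Col(gl) at 9.15 and 9.14. Salted M6PR read 5.48 and 6.26. This fall of -2.80 ± 0.41 (SE, n = 2 arrays per group; adjusted p = 0.00627 by limma), or 6.97-fold, was the 5th lowest of 22746 differences. Col stayed low at 5.43 and 5.24 without and 5.87 and 5.63 with salt (0.41 ± 0.41, adjusted p = 0.485 by limma), so that unsalted M6PR was 10.1-fold above Col (adjusted p = 0.000246 by limma). As these unsalted Col signals were below every array median and may be background, that fold is uncertain. The interaction was -3.21 ± 0.58 (adjusted p = 0.00827 by limma). With salt Col(gl) reached 9.87 and 9.67, and SOS1 read 6.11 and 7.08 without and 6.45 and 5.29 with salt.

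AT1G52200, of the PLAC8 family, had salt differences of opposite sign in the 2 genotypes. M6PR read 8.55 and 8.43 without and 5.85 and 6.86 with salt, a difference of -2.14 ± 0.51 (SE, n = 2 arrays per group) that did not pass (adjusted p = 0.0866 by limma). Col read 4.76 and 4.69 without salt and rose to 6.40 and 7.17, by 2.06 ± 0.51 or 4.18-fold (adjusted p = 0.0113 by limma). The interaction was -4.20 ± 0.73 (adjusted p = 0.00677 by limma). Unsalted M6PR was 13.6-fold above Col (adjusted p = 0.000416 by limma). The unsalted Col signals were below every array median and may be background, so both folds against them are uncertain. Col(gl) read 8.71 and 8.69, and 9.52 and 9.62 with salt, against 5.72 and 7.58, and 6.38 and 5.70, in SOS1.

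The peptidase inhibitor gene AT1G72060 read 8.05 and 7.43 in unsalted and 5.50 and 6.16 in salted M6PR, a difference of -1.91 ± 0.45 (SE, n = 2 arrays per group; adjusted p = 0.0782 by limma). In Col the signals were 5.51 and 5.02, then 6.60 and 6.11 with salt, a difference of 1.09 ± 0.45 (adjusted p = 0.0973 by limma). Neither passed alone, and the interaction did, at -3.00 ± 0.63 (adjusted p = 0.0148 by limma). Unsalted M6PR was 2.47 ± 0.45 above Col (adjusted p = 0.00244 by limma). Col(gl) read 8.49 and 8.25, and 9.37 and 9.17 with salt, and SOS1 4.83 and 5.89, and 6.41 and 4.74.

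For the hydrolase AT2G39400, both salted M6PR arrays lay above both salted Col arrays. M6PR read 9.08 and 9.29 without and 7.60 and 8.02 with salt, a difference of -1.37 ± 0.42 (SE, n = 2 arrays per group; adjusted p = 0.199 by limma), while Col read 5.74 and 6.18, then 6.89 and 7.31. The M6PR excess was 3.22 ± 0.42 without salt (adjusted p = 0.000351 by limma) and 0.72 ± 0.42 with salt (adjusted p = 0.302 by limma). The interaction was -2.50 ± 0.60 (adjusted p = 0.0244 by limma). Col(gl) read 9.33 and 9.43, and 9.42 and 9.49 with salt, so its salt groups overlapped. SOS1 read 7.41 and 7.67, and 7.30 and 5.42 with salt.

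AT1G22890 was the gene for which unsalted M6PR, at 9.91 and 9.69, had the highest group mean, 9.80 against 9.65 in salted and 9.26 in unsalted Col(gl). Salted M6PR read 8.01 and 8.47, a difference of -1.55 ± 0.71 (SE, n = 2 arrays per group; adjusted p = 0.468 by limma). Col rose from 5.45 and 5.56 to 8.18 and 8.51, by 2.84 ± 0.71 or 7.14-fold (adjusted p = 0.0118 by limma). The interaction, -4.39 ± 1.01 (adjusted p = 0.0211 by limma), was the largest of the 8. Unsalted M6PR was 19.6-fold above Col (adjusted p = 0.0014 by limma). Both folds rest on unsalted Col signals below every array median, which may be background. Col(gl) read 9.36 and 9.17, and 9.51 and 9.79 with salt, and SOS1 7.07 and 8.07, and 8.16 and 5.20, so the salted SOS1 arrays spread widely.

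In Ws and CBF3 the genes did not pass any test. By limma 0 of 8 were called with salt in Ws, against 4.71% of all probe sets, and 4 had an unadjusted p below 0.05, against 19.7%. The differences ran from -1.43 for AT3G16530 to 1.82 for AT1G22890, with AT3G16530 and AT3G23550 lower without overlap and the other 6 higher, against 31.3% and 24.2% of all probe sets. AT3G16530 read 7.12 and 7.50 without and 6.23 and 5.54 with salt, and AT1G22890 4.83 and 4.22 without and 6.59 and 6.10 with salt. In CBF3 they ran from -0.77 to 0.43 (0 of 8 called by limma, 0 with an unadjusted p below 0.05, backgrounds 0.00879% of all probe sets called and 3.27% with an unadjusted p below 0.05, given in that order from here), and replicate 2 of salted CBF3 was above replicate 1 for 8 of 8 genes. CBF3 against Ws gave 0 of 8 calls by limma without salt, where 4 had an unadjusted p below 0.05 and the backgrounds were 6.79% and 18.8%. It also gave 0 of 8 with salt, where 0 had an unadjusted p below 0.05 and the backgrounds were 3.73% and 18.5%. The CBF3 interaction gave 0 of 8, with 2 unadjusted p below 0.05 and backgrounds of 0.0703% and 11.3%.

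**Figure D3:**
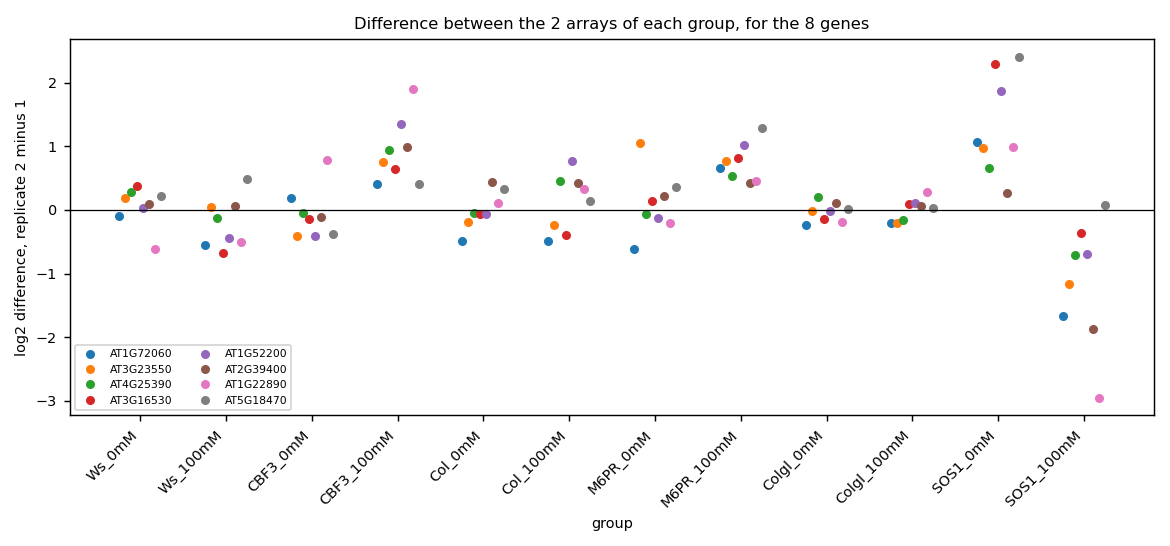
Log2 difference between replicate 2 and replicate 1 (vertical axis) for the 8 genes in each of the 12 groups, 1 point per gene. All 8 points lie above 0 in salted CBF3, salted M6PR and unsalted SOS1, and 7 of 8 lie below 0 in salted SOS1, while the Col(gl) points lie between -0.24 and 0.29.

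Among themselves the genes moved together only in part. Over the 16 arrays of Ws, CBF3, Col and M6PR, the 28 pairwise correlations ran from 0.13 (AT3G16530 and AT1G52200) to 0.91 (AT2G39400 and AT1G22890), with a median of 0.70. The rule did not use the values of these arrays, but results for M6PR were known when the genes were chosen. The arrays also share groups and replicates, so the correlations are a description.

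By the same description, 6 other genes had profiles most like the mean of the 8 over those 16 arrays, among 5828 single-gene probe sets with a range of at least 1 log2 unit: AT3G54150 (r = 0.96), AT1G32460 (0.96), AT5G25440 (0.95), AT1G19020 (0.95), AT1G50740 (0.95) and AT3G09020 (0.95). Over all 24 arrays the values were 0.96, 0.93, 0.94, 0.95, 0.93 and 0.94. These include the Col(gl) and SOS1 arrays that chose the 8 genes, so they add no support. AT1G19020 averaged 9.74 in unsalted and 8.15 in salted M6PR, 6.2 and 8.58 in Col, 10.19 and 10.11 in Col(gl) and 8.26 and 7.86 in SOS1. AT5G25440 averaged 9.31 and 7.57 in M6PR, 7.24 and 7.33 in Col, 9.29 and 9.06 in Col(gl) and 8.14 and 7.33 in SOS1. Of these 6, AT3G54150 was also the 11th largest fall of SOS1 against Col(gl) with salt. AT3G54150 and AT3G09020 were dim over the 16 arrays, where low signals may be background. They averaged 5.08 and 5.44 in unsalted M6PR. In the other groups of those arrays AT3G54150 averaged 3.77 to 4.19 and AT3G09020 3.74 to 4.58.

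**Figure D4:**
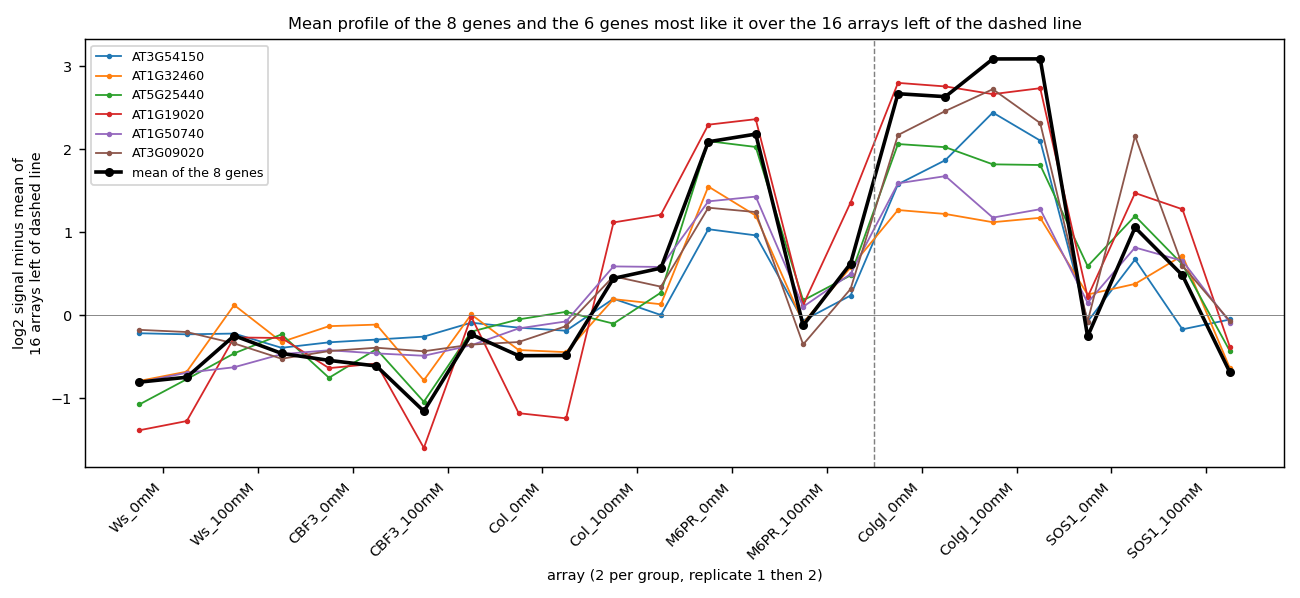
Log2 signal minus its mean over the 16 arrays left of the dashed line (vertical axis), on all 24 arrays by group, for the mean of the 8 genes (black) and the 6 genes most like it over those 16 arrays. The 7 profiles peak at unsalted M6PR among the 16 arrays and are high in Col(gl), right of the line, with r over 24 arrays of 0.93 to 0.96. The arrays right of the line chose the 8 genes, so the r over 24 arrays is a description.

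Other genes of the same families and pathways were read from lists that hold 66 measured genes besides the 8. With salt in M6PR, 0 of these 66 passed by limma, against 0.541% of all probe sets. An unadjusted p below 0.05 was found for 11 of them, against 10.2% of all probe sets. The median difference was 0.08. In Col 9 of 66 rose and 8 fell, against 10.1% and 10.8% of all probe sets. Early elicitor and wound genes, which answer pathogen molecules and injury within a short time, rose in 5 of 7 measured in Col, among them STZ, a zinc-finger repressor (4.90), CML38, a calmodulin-like protein (3.62), WRKY53, a transcription factor (3.0) and PUB23, a ubiquitin ligase (2.61). Of the same 7, 4 were higher in unsalted M6PR than in Col, against 4.87% of all probe sets: CML38 (4.17), STZ (3.32), PUB23 (2.03) and CML42 (1.84). With salt in M6PR 0 of 7 passed, with a median of 0.26.

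The other members of the same families were counted alike. Of 29 other MATE genes, 6 fell and 2 rose with salt in Col, against 10.8% and 10.1% of all probe sets. The rises were AT5G52050 (2.69) and AT1G61890 (2.22). Between unsalted M6PR and Col 0 of the 29 differed by limma, against 10.3% of all probe sets. An unadjusted p below 0.05 held there for 6 of the 29, and for 4618 of all 22746 probe sets. Of 14 other monoacylglycerol lipase-like genes, 2 fell in Col with salt, against the same 10.8%, AT1G11090 (-0.84) and AT1G18360 (-0.82). In unsalted M6PR against Col 4 of these 14 were lower and 1 higher, against 5.44% and 4.87% of all probe sets, among them AT1G73480 (-1.94), AT5G19290 (-0.97), AT5G16120 (0.97) and AT2G47630 (-0.83). Of 8 other proteinase inhibitors, 1 rose with salt in Col, AT2G38870 (1.07), against 10.1% of all probe sets. In unsalted M6PR 1 was higher than in Col, AT1G17860 (0.98), against 4.87%. Of 5 other PLAC8 genes and the 1 other lectin, AT5G03350, 0 passed in either comparison by limma. An unadjusted p below 0.05 for salt in Col held for 1 of the PLAC8 genes, and for 7853 of all 22746 probe sets. Of 3 measured salicylate and systemic defence genes, 1 rose with salt in Col, GRX480, a glutaredoxin (2.09), against 10.1% of all probe sets. SAG101, a lipase-like immune regulator, was the 1 of these 3 that was higher in unsalted M6PR (0.81), against 4.87%. None of the 7 sodium transport and SOS pathway genes was measured by a probe set with a single gene.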

How the data were processed

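Leaf RNA was measured on 24 arrays. The deposited values are log2 signals. Per the submitters' processing notes the authors used GCOS and RMA, without a stated version. RMA normalizes arrays together, so a shift shared by most genes would be reduced. Of 22810 probe sets, 64 controls were left out. The table of probe genes gave 13513 a single gene, 503 several and 8730 none, and 13436 matched a RefSeq table of assembly TAIR10.1. Where a gene had several probe sets, that with the highest mean was used. No coordinates or sequences are given.

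Tests used limma 3.58.1 (R 4.3.3). The model gave each group its own mean and used all 24 arrays, which left 12 residual degrees of freedom (prior 3.11). Tests were two-sided, and p-values of each comparison were adjusted by Benjamini-Hochberg across 22746 probe sets, with a threshold of 0.05. There were 8 two-group tests and 2 interactions; SOS1 and Col(gl) contrasts were described without a test. Errors are SE pooled over all groups. Detection calls were not used, so low signals may be background, and the number of arrays limits precision. The scripts were tested on simulated data. The members and the gene lists were chosen with earlier results of these data known, including that M6PR with salt resembles SOS1 against Col(gl), so that resemblance is no independent support. Named genes are the 8 members, up to 4 passing genes per list and comparison, and the 6 most similar profiles. Alternatives covered scaling, weights, fits, left-out arrays and a replicate block.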

Additional observations from a re-analysis of the deposited data

Results flagged for a closer look

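The salt difference in M6PR differed from that in Col by a test of the difference itself, the interaction in limma (2 arrays per group, adjusted p over all probe sets). Among the 8 genes it was -3.00 for AT1G72060, -3.21 for AT3G23550, -4.20 for AT1G52200, -2.50 for AT2G39400, -4.39 for AT1G22890 and -3.15 for AT5G18470 on the log2 scale. Among the 66 other list genes it was -2.09 for GRX480, -4.20 for STZ, -1.92 for CML23, -1.39 for AT1G17860, 0.96 for the MATE gene AT1G23300, and 1.14 and 1.92 for the lipase-like genes AT1G18360 and AT1G73480. The adjusted p of these 7 ran from 0.014 to 0.0491 by limma.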

How the results depend on the processing

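The count of the 8 genes that passed was recomputed under each alternative. For salt in M6PR, 2 as reported, it was 5 after median centring of the arrays and 4 when arrays were weighted. It was 6 without the Col(gl) and SOS1 arrays, an alternative chosen after seeing the data, and 0 to 4 with 1 array left out. All 8 differences stayed negative under each. For salt in Col, 2 as reported, it was 4 when each background was fitted alone, 7 when arrays were weighted (6 higher), 1 without the 2 arrays with the lowest dap signal, 5 without the Col(gl) and SOS1 arrays (4 higher) and 0 to 1 with 1 array left out. For salt in Ws, 0 as reported, it was 3 with array weights, 1 without the Col(gl) and SOS1 arrays and 0 with 1 array left out. For CBF3 against Ws without salt, 0 as reported, it was 4 and 2 under those 2 settings. The M6PR interaction, 6 as reported, gave 2 without the 2 low-dap arrays. With 1 array left out it gave 1 (M6PR salted replicate 1) to 6, with 3 without Col unsalted replicate 1 and 2 without Col unsalted replicate 2, either unsalted M6PR array or Col salted replicate 1. M6PR against Col with salt gave 0 to 1 with 1 array left out, and without salt 5 to 8 over all alternatives against 6. No gene changed sign for salt in M6PR, Col or Ws, M6PR against Col without salt, the M6PR interaction or SOS1 against Col(gl). In M6PR against Col with salt, where nothing passed, 4 of 8 did: AT3G16530, -0.085 as reported, was 0.0935 after centring, 0.0405 after quantile normalization, 0.11 without the low-dap arrays and -0.49 to 0.32 with 1 array left out. AT1G22890, -0.10, was 0.0785 after centring and -0.33 to 0.13 with 1 left out, AT1G52200 -0.94 to 0.0728 and AT3G23550 -0.26 to 0.51. For salt in SOS1 6 of 8 genes changed sign with 1 array left out, and AT2G39400 did for salt in Col(gl) after centring (-0.011). The median of the 8 turned without replicate 1 of salted CBF3 for salt in CBF3 (0.34), CBF3 against Ws with salt (0.14) and the CBF3 interaction (0.038), and single genes were not recomputed there. It also turned for M6PR against Col with salt without replicate 1 of salted M6PR (0.10) and for salt in SOS1 without replicate 2 of unsalted SOS1 (0.38). Where leaving out arrays changed a count, fewer arrays remained; for the other changes the cause was not tested.

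Replicate numbers recur in all groups, and the labels do not say whether same-numbered samples were paired. Deviations of same-numbered samples correlated from -0.357 to 0.701 over 66 pairs of groups, 21 of them above 0.1. Between the unsalted and salted groups of a genotype the correlation was 0.551 in M6PR, 0.49 in CBF3, -0.015 in Col and 0.03 in Ws. With the replicate number as a single block shared by all groups, the counts were 2 for salt in M6PR, 2 for salt in Col and 6 for the M6PR interaction, as without it. Such a block does not model a pairing within a genotype. Over all probe sets the count for salt in M6PR ran from 11 to 375 against 123 as reported, and for salt in Col from 1409 to 8076 against 4764. Counts for the other tested comparisons ran from 123 to 2494 for salt in Ws (1072), 0 to 83 for salt in CBF3 (2), 944 to 5332 and 10 to 3720 for M6PR against Col without (2346) and with salt (120), 463 to 3780 and 278 to 1367 for CBF3 against Ws (1545 and 848), 150 to 3860 for the M6PR interaction (1382) and 3 to 474 for the CBF3 interaction (16). Centring changed the calls for salt in M6PR from 86 lower and 37 higher to 149 and 34.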
